A study of Mus musculus with 24 samples.

Results

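The 9 genes Nrp1, Nrp2, Vegfa, Ntrk2, Ntrk3, Ngfr, Bdnf, Ntf3 and Hdac6 encode neuropilins, Trk receptors and HDAC6, reported binding partners of mutant glycyl-tRNA synthetase, with the p75 receptor and ligands of these receptors. They were taken by symbol from the 38924 genes listed for each library, and each symbol stood for 1 gene. Values came from ribosome-bound mRNA of mouse spinal cord at 8 weeks of age, collected by RiboTag, in which Cre adds an HA tag to the ribosomal protein Rpl22 and the tag is pulled down. There were 4 groups of 6 mice: Gars C201R heterozygotes with Cre, wild type with Cre, C201R heterozygotes without Cre, and wild type without Cre. All mice carried 1 copy of the taggable Rpl22 allele, and the background was labelled B6.CgxB6.129. Cre came from the cholinergic ChAT locus, so the tag marks any cholinergic cell of the cord, not motor neurons alone. The pulldowns without Cre hold RNA that came down without the tag. Fewer cells of a type and less RNA per cell cannot be told apart in these pools.

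Neuropilins are membrane co-receptors. Nrp1 and Nrp2 bind class 3 semaphorins, which steer growing axons with plexins as partners, and Nrp1 also binds VEGF-A, the vessel growth factor encoded by Vegfa, which also acts on motor neurons. Neurotrophins signal through Trk receptor kinases: BDNF binds TrkB (Ntrk2), NT-3 binds mainly TrkC (Ntrk3), and all neurotrophins bind the p75 receptor (Ngfr). HDAC6 is a cytoplasmic deacetylase that removes acetyl groups from alpha-tubulin. In mouse and cell studies of Gars neuropathy, mutant synthetase was reported to compete with VEGF-A for Nrp1, to bind Trk receptors, and to bind HDAC6. Those are interactions of proteins, while the values here are mRNA levels.

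Library totals ranged from 8.9 to 28.29 M expected counts. Chat, the gene whose locus drives Cre, stood at 49.97 to 116.4 CPM in C201R and 51.11 to 61.99 CPM in wild type with Cre, and at 0.8712 to 3.332 CPM in C201R and 1.602 to 8.912 CPM in wild type without Cre (CPM, the count over the scaled library total in M). Counts per gene do not separate the alleles of Gars, so the C201R label could not be checked in this way. The summed level of 12 astrocyte markers was 690.7 to 982.7 CPM in C201R and 662.1 to 1031 CPM in wild type with Cre, and 2307 to 2967 CPM in C201R and 2146 to 2649 CPM in wild type without Cre. The sum of 12 endothelial and mural markers was 28.98 to 95.22 CPM and 28.76 to 89.99 CPM in C201R and wild type with Cre, and 288 to 501 CPM and 237.7 to 568.3 CPM in C201R and wild type without Cre. None of the markers was at 0 in a whole group. The ribosomal RNA model Gm26924 took 8.01 to 43.3% of counts in C201R and 7.45 to 30.8% in wild type with Cre. C201R mouse 14003-1 and wild-type mouse 14701-9 held the highest mitochondrial shares with Cre, 15.8% and 17.1%. Results that depend on them are given without them as well.

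Set against transcript length, the 9 genes stood in a different order with Cre than without it. In C201R with Cre the levels were 14.9 ± 3.7 CPM per kb for Vegfa, 11.9 ± 1.9 for Nrp2, 10.0 ± 1.5 for Ntrk2, 8.56 ± 1.87 for Ntrk3 and 4.44 ± 1.15 for Nrp1 (SD, n = 6). The libraries of the first 4 overlapped from each gene to the next, and the highest Nrp1 value, 6.04, lay just below the lowest Ntrk3 value, 6.22. Ngfr (1.94 ± 1.87), Bdnf (1.80 ± 0.46) and Hdac6 (1.31 ± 0.49) overlapped with each other, and Ntf3 was lowest at 0.135 ± 0.156 CPM per kb.

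In wild type with Cre, Nrp2 led at 17.6 ± 1.7 CPM per kb, followed by Ntrk2 at 12.8 ± 1.6, Ntrk3 at 9.72 ± 2.87, Vegfa at 6.16 ± 2.43 and Nrp1 at 4.82 ± 0.86. Nrp2 began at 14.39 CPM per kb and Ntrk2 ended at 14.35, while the other neighbours in this order overlapped. Bdnf (1.40 ± 0.50), Hdac6 (1.15 ± 0.29), Ngfr (0.705 ± 0.297) and Ntf3 (0.0214 ± 0.0347) made up the low end. Vegfa, with the highest mean CPM per kb of the 9 in C201R with Cre, thus stood below Nrp2, Ntrk2 and Ntrk3 in wild type with Cre. Its estimated transcript length ran from 983 to 1941 bases in C201R and from 1106 to 2309 bases in wild type with Cre. In CPM, without length, Vegfa averaged 19.2 in C201R with Cre, against 56.4 for Nrp2 and 78.7 for Ntrk2.

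Without Cre the order in both genotypes began with Ntrk2, at 27.3 ± 3.2 CPM per kb in C201R and 25.7 ± 1.3 in wild type, then Ntrk3 (15.4 ± 5.8 and 13.96 ± 4.22) and Vegfa (15.0 ± 4.8 and 13.02 ± 3.11). Nrp2, at 6.84 ± 1.86 in C201R and 8.29 ± 2.38 in wild type, came after them. Nrp1 (2.96 ± 1.03 and 2.83 ± 1.03), Hdac6 (3.08 ± 1.93 and 2.23 ± 1.55), Ngfr (1.83 ± 1.82 and 1.52 ± 1.17), Bdnf (0.833 ± 0.517 and 0.731 ± 0.369) and Ntf3 (0.0533 ± 0.0638 and 0.0987 ± 0.2026) were lower. Neighbours among Nrp1, Hdac6, Ngfr and Bdnf overlapped in both genotypes.

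**Figure D1:**
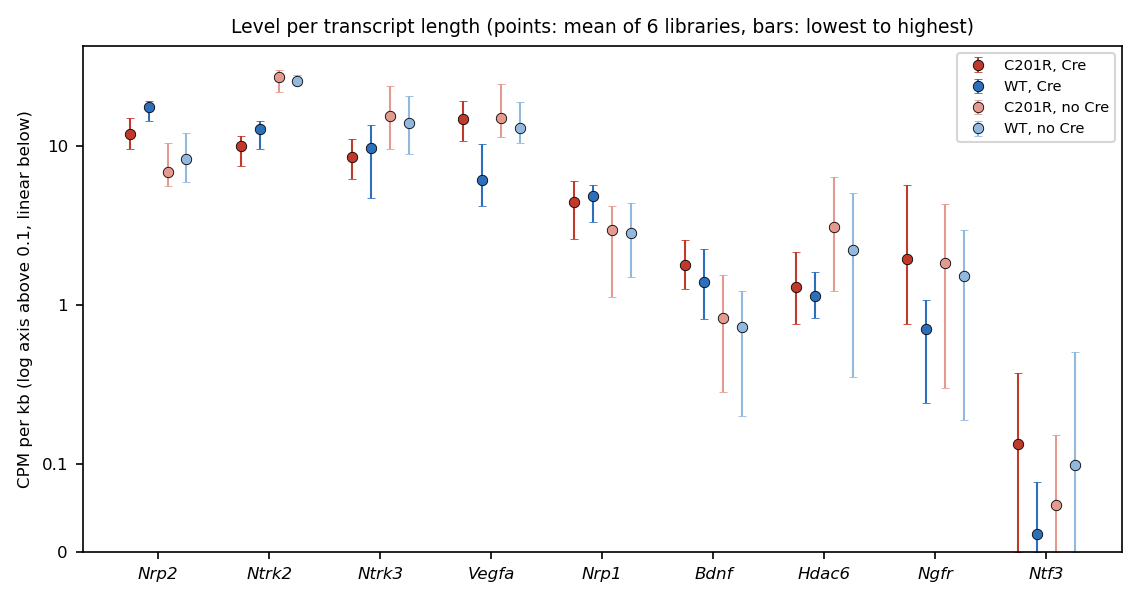
Mean level of each gene in CPM per kb of effective transcript length (log axis above 0.1, linear below), with bars from the lowest to the highest of 6 libraries, for the 4 groups. Vegfa stood at 14.9 CPM per kb in C201R with Cre against 6.16 in wild type with Cre, and Ntrk2 was highest in both groups without Cre.

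Vegfa (ENSMUSG00000023951), the ligand shared by neuropilin and the VEGF receptors, was higher in C201R pulldowns with Cre and was the only one of the 8 tested genes that passed the test between genotypes with Cre. Its level was 14.27 CPM at the lowest, 20.38 at the median and 23.33 at the highest library of C201R with Cre, against 6.866, 9.234 and 10.97 CPM in wild type with Cre. Every C201R library lay above every wild-type library. The log2 fold change was 1.10 ± 0.18 (SE, edgeR adjusted p = 0.0029), which placed Vegfa at rank 79 of 14634 genes by p. Within library series 2 (3 against 4 libraries) the log2 change was 1.29 ± 0.16 (edgeR adjusted p = 0.00015), and within series 1 (3 against 2) it was 0.84 ± 0.45 (edgeR adjusted p = 1.00). Without mice 14003-1 and 14701-9 it was 1.14 ± 0.16 (edgeR adjusted p = 0.0004). The call ended with scaling by library totals alone, at 0.81 (edgeR adjusted p = 0.38), where the median of all genes stood at -0.26. It also ended with the mouse number prefix as a block, at 1.09 (edgeR adjusted p = 0.11).

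Vegfa in pulldowns without Cre ran from 18.06 to 30.06 CPM in C201R (median 18.81) and from 14.89 to 23.97 CPM in wild type (median 17.31). These groups overlapped, and the log2 change between genotypes was 0.16 with an interval of -0.28 to 0.60 (edgeR, 1.96 SE either side). A change of Vegfa with Cre was called in wild type and not in C201R, which is not itself a test between genotypes. Between pulldowns with and without Cre the log2 change of Vegfa was 0.005 ± 0.22 in C201R (edgeR adjusted p = 0.99), while in wild type it was -1.21 ± 0.21 (edgeR adjusted p = 0.00014). The C201R libraries with Cre, at 14.27 to 23.33 CPM, overlapped the range of those without Cre, whereas the wild-type libraries with Cre all lay below those without. In wild type the change was -1.24 ± 0.24 within series 2 and -0.91 ± 0.80 within series 1, where 2 libraries faced 1. With library totals alone the wild-type value was -0.28 (edgeR adjusted p = 0.41), at a median of all genes of 0.84.

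The test of the difference itself, genotype by Cre over all 24 libraries, gave Vegfa a log2 interaction of 0.93 ± 0.28 with an unadjusted p of 0.0028 and an edgeR adjusted p of 0.26, so a genotype change particular to pulldowns with Cre was not shown at this threshold. DESeq2 called it (0.97 ± 0.27, adjusted p = 0.043). The astrocyte and endothelial marker sums given above overlapped between genotypes with Cre. Of the 12 astrocyte markers 1 was called higher in C201R and 0 lower, and 0 of the 11 endothelial and mural markers tested were called. Markers of other spinal neurons summed to 238.2 to 663.1 CPM in C201R and 187.1 to 409.9 CPM in wild type with Cre. The sum of 10 fibroblast and Schwann cell markers did not overlap, at 194.2 to 307.7 CPM in C201R and 343.3 to 498 CPM in wild type with Cre, and 2 of the 10, Dcn and Pmp22, were called lower in C201R. Of 15 markers of cholinergic motor neurons 4 were called lower (Chodl, Calca, Calcb and Ahnak2) and 0 higher, with sums of 4158 to 6476 CPM in C201R and 4814 to 6830 CPM in wild type. The 13 microglial markers summed to 24.52 to 46.32 CPM in C201R and 13.93 to 45.23 CPM in wild type, and 0 of the 7 tested were called at a median log2 change of 0.61. The part of these markers in the Vegfa difference was not tested.

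The 250 bases before the first Vegfa start in RefSeq (GRCm38.p6, chr17:46032378-46032627, minus strand) are shown because Vegfa is the gene whose level differed between genotypes; capitals mark the GC box GGGCGG, which occurs there 2 times.
Vegfa promoter: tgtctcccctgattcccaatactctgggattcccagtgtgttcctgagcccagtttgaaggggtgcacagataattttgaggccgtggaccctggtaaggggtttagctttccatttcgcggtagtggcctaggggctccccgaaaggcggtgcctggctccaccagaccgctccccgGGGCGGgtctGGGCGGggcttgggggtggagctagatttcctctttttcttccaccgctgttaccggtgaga
Searched on both strands, this window held neither the hypoxia core ACGTG nor TGATGNAA, the core of the composite site of ATF4 and C/EBP. The window of the same length before the other Vegfa start in RefSeq (chr17:46025164-46025413, minus strand) held ACGTG 1 time, on the reverse strand, GGGCGG 1 time and TGATGNAA 0 times. Of the 20-base stretches in this window and the 50 bases after its start, 199 also occur in Vegfa transcripts of GENCODE M21. For the first start 23 do. Part of the second window is thus itself Vegfa transcript sequence, and it is among the windows counted below. Among 32851 promoters of the same length, GGGCGG was present in 32.7%, ACGTG in 16.6% and TGATGNAA in 3.45%. RefSeq promoters were matched for 8 of the 9 genes, 16 windows in all, of which 10 held GGGCGG, 6 held ACGTG and 0 held TGATGNAA. The matches printed do not overlap each other, and a match is a description of the sequence only. Bases farther upstream or after the start were not searched, so an absence holds for the window alone.

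Bdnf, the ligand of TrkB, was higher with Cre than without it in C201R. It stood at 4.952 CPM at the lowest, 7.106 at the median and 9.783 at the highest library in C201R with Cre, and at 1.011, 2.615 and 5.554 CPM in C201R without Cre. The groups overlapped at their ends. The log2 change was 1.18 ± 0.43 (edgeR adjusted p = 0.027). Within series 2 it was 1.40 ± 0.50 (edgeR adjusted p = 0.026) and within series 1, with 3 libraries against 1, it was 0.57 ± 0.96 (edgeR adjusted p = 0.77). The call was lost with RLE scaling, with the mouse number prefix as a block, and without any 1 of 4 libraries (C201R mice 14004-2 and 14004-5 with Cre, 14004-8 and 14702-9 without), where the adjusted p reached at most 0.10.

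In wild type Bdnf had 3.109 to 8.687 CPM with Cre (median 5.075) and 0.7093 to 4.451 CPM without it (median 2.859), a log2 change of 0.78 ± 0.43 that did not pass the test (edgeR adjusted p = 0.12). It passed with library totals alone (1.71, edgeR adjusted p = 0.0026) and without mouse 14702-6 (edgeR adjusted p = 0.044). Between genotypes with Cre the Bdnf libraries overlapped and the log2 change was 0.40, with an interval of -0.13 to 0.94 (edgeR adjusted p = 0.47). The interaction was 0.24 ± 0.59, so the enrichment in C201R was not shown to differ from that in wild type. Bdnf counts were low, with 154 reads over the 6 libraries of C201R without Cre and 179 over those of wild type without Cre.

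Ntf3, which encodes NT-3, was too sparse to be tested in any comparison. It had 22 expected counts over 6 libraries in C201R with Cre, 5 in wild type with Cre, 3 in C201R without Cre and 5 in wild type without Cre. The libraries with a count of 0 numbered 2, 4, 3 and 4 in these groups. In C201R with Cre, mouse 14004-2 held 10 of the counts and mouse 14701-5 held 8. A count of 0 in a library allows up to 3 counts, and a difference of Ntf3 between groups was not tested.

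**Figure D2:**
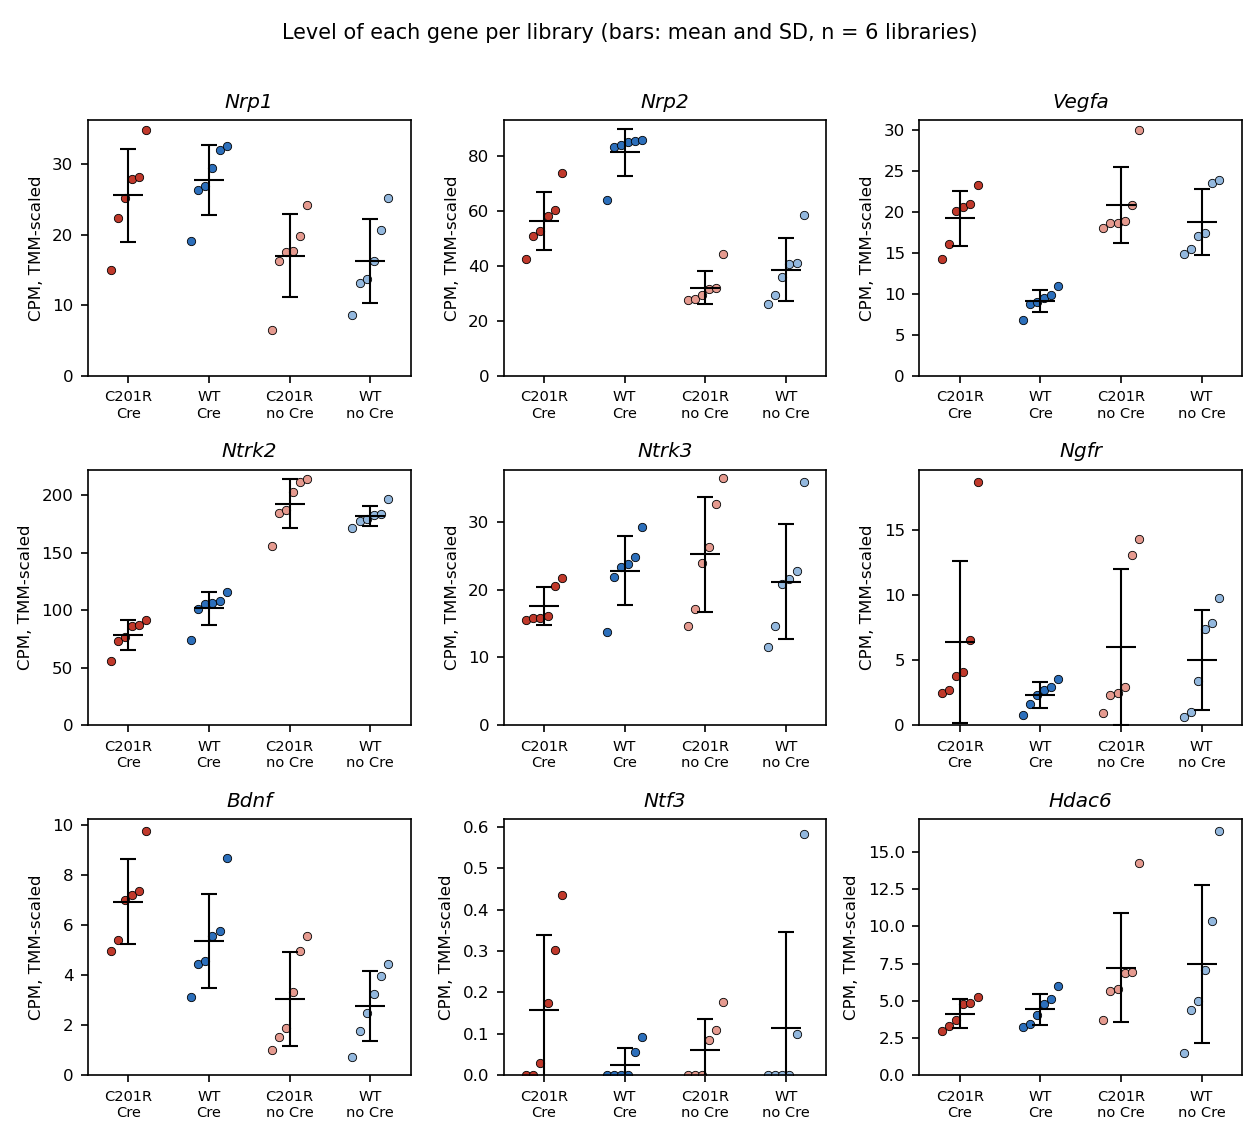
Level of each of the 9 genes per library in CPM (scaled by TMM over 24 libraries), with the mean and SD of 6 libraries per group. The C201R libraries with Cre lie above all wild-type libraries with Cre for Vegfa (14.27 to 23.33 against 6.866 to 10.97 CPM), and Ntf3 is at or near 0 in all groups.

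Both neuropilins were higher in pulldowns with Cre than without it, in both genotypes. Nrp2 (ENSMUSG00000025969) stood at 42.55, 55.38 and 73.82 CPM (lowest, median and highest library) in C201R with Cre against 27.71, 30.42 and 44.2 CPM in C201R without Cre, and 5 of the 6 libraries with Cre lay above all of those without. In wild type it stood at 64.18, 84.56 and 86.02 CPM with Cre against 26.05, 38.32 and 58.5 CPM without, and the groups did not overlap. The log2 change was 0.79 ± 0.19 in C201R (edgeR adjusted p = 0.0019) and 0.97 ± 0.17 in wild type (edgeR adjusted p = 0.00018). Within series 2 it was 0.87 ± 0.16 in C201R and 0.93 ± 0.18 in wild type, and within series 1 it was 0.51 ± 0.50 and 1.29 ± 0.84. With Gm26924 as an added term the C201R value kept its size, 0.80, at an edgeR adjusted p of 0.055.

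Nrp1, the neuropilin to which mutant synthetase was reported to bind, stood at 14.95, 26.52 and 34.79 CPM (lowest, median and highest library) in C201R with Cre against 6.429, 17.61 and 24.21 CPM in C201R without Cre. In wild type the values were 19.05, 28.15 and 32.62 CPM with Cre and 8.618, 14.98 and 25.18 CPM without it. The groups overlapped in both genotypes. The log2 change was 0.90 ± 0.28 in C201R (edgeR adjusted p = 0.0097) and 0.62 ± 0.24 in wild type (edgeR adjusted p = 0.033). The C201R call was lost under several settings. The value was 0.64 without the library series term (edgeR adjusted p = 0.059), 0.52 ± 0.22 within series 2 (edgeR adjusted p = 0.054), 1.98 ± 0.72 within series 1, 0.52 without mouse 14003-2 (edgeR adjusted p = 0.11) and 0.31 when the Gm26924 share was fitted as a term (edgeR adjusted p = 0.60). The wild-type call was lost without any 1 of 6 libraries (mice 14002-6, 14004-3 and 14703-5 with Cre, 14004-4, 14702-1 and 14702-5 without), at an edgeR adjusted p of 0.050 to 0.068. With the prefix block the values were 0.70 in C201R and 0.67 in wild type (edgeR adjusted p = 0.12 for both).

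Between genotypes with Cre, neither neuropilin passed the test. Nrp2 had 42.55 to 73.82 CPM in C201R and 64.18 to 86.02 CPM in wild type, and only the highest C201R library, mouse 14003-1, reached into the wild-type range. Its log2 change was -0.50 ± 0.15 with an interval of -0.79 to -0.21 (edgeR adjusted p = 0.071). It passed the threshold with DESeq2 (-0.49, adjusted p = 0.025), with limma-voom (-0.62, adjusted p = 0.00049), within series 2 (-0.59 ± 0.10, edgeR adjusted p = 0.0025) and without mice 14003-1 and 14701-9 (-0.63, edgeR adjusted p = 0.0015). Within series 1 it was -0.35 ± 0.36. Nrp1 had a log2 change of -0.07 with an interval of -0.42 to 0.29 (edgeR adjusted p = 0.89), and its libraries overlapped over most of their range.

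Without Cre, the log2 change between genotypes was -0.28 (interval -0.68 to 0.13) for Nrp2 and -0.006 (interval -0.57 to 0.56) for Nrp1, with an edgeR adjusted p of 1.00 for both. The interaction was -0.26 ± 0.26 for Nrp2 and -0.08 ± 0.36 for Nrp1. Neither was called.

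**Figure D3:**
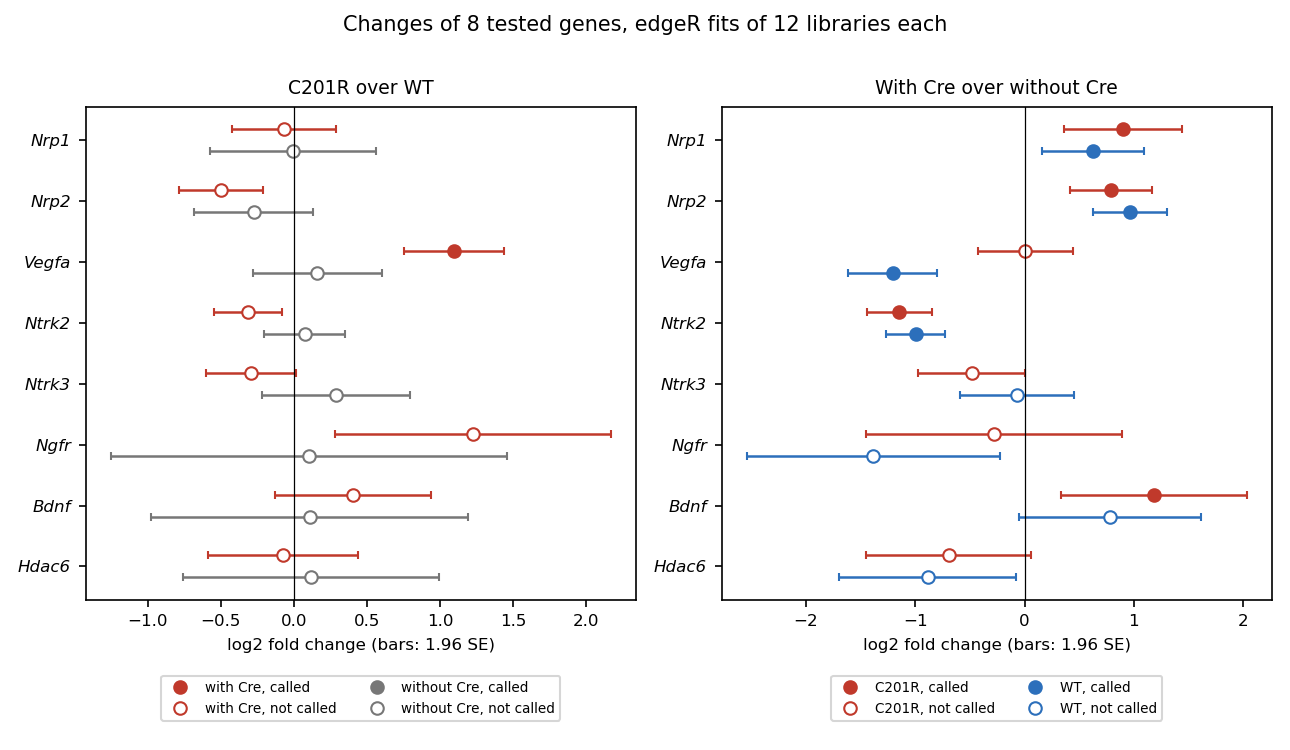
Log2 fold changes of the 8 tested genes with bars of 1.96 SE, C201R over wild type (left) and with Cre over without Cre (right); filled points have an edgeR adjusted p under 0.05. Vegfa is the only filled point on the left (1.10 with Cre), and on the right Ntrk2 is filled in both genotypes at -1.15 in C201R and -0.997 in wild type.

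Ntrk2 (ENSMUSG00000055254), the TrkB gene, was lower in pulldowns with Cre than without it in both genotypes. It stood at 56.1, 81.71 and 91.92 CPM (lowest, median and highest library) in C201R with Cre against 156.2, 195.1 and 213.8 CPM in C201R without Cre. In wild type it stood at 74.18, 105.8 and 115.9 CPM with Cre against 171.1, 181.2 and 197 CPM without it. The groups did not overlap in either genotype. The log2 change was -1.15 ± 0.15 in C201R (edgeR adjusted p = 6.7e-06) and -0.997 ± 0.138 in wild type (edgeR adjusted p = 1.6e-05). Within series 2 it was -1.23 ± 0.15 in C201R and -0.88 ± 0.12 in wild type, and within series 1 it was -1.02 ± 0.39 and -1.16 ± 0.81. With library totals alone, where the median of all genes stood at 0.64 in C201R and 0.84 in wild type, the values of Ntrk2 were -0.56 and -0.04 (edgeR adjusted p = 0.16 and 0.90), and neither was called.

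TrkB is made in a form with the kinase and in truncated forms without it, of which astrocytes are a known source. The gene model of GENCODE M21 (GRCm38, chromosome 13) holds 2 transcripts of Ntrk2. The kinase form is 8744 bases long and encodes 821 codons, and the truncated form is 6846 bases long and encodes 476 codons. They share their first 1394 coding bases. The stretch across the point where they part is shown, since the finding on Ntrk2 turns on which of the 2 was read; lower case marks the last 30 shared bases and capitals mark the next 37 bases of each, which in the truncated form end at its stop codon.
Ntrk2 kinase form: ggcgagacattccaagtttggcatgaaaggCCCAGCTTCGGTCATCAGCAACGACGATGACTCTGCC
Ntrk2 truncated form: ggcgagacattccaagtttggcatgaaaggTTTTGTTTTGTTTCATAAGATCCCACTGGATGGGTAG
The files give 1 length per gene and library, the mean transcript length weighted by abundance, which moves with the mix of transcripts.

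The weighted length of Ntrk2 was 7644 to 8200 bases (median 8034) in C201R with Cre and 7147 to 7294 bases (median 7215) in C201R without Cre. In wild type it was 7850 to 8256 bases (median 8141) with Cre and 7176 to 7323 bases (median 7230) without it. The groups with and without Cre did not overlap in either genotype. The means differed by 776.2 bases in C201R and 885.1 bases in wild type (exact two-sided permutation p = 0.0022 each, the smallest that 6 against 6 libraries allow; 0.013 adjusted over 24 tests, and 0.027 with exchange only within library series). Between genotypes the weighted length overlapped, with a difference of -129.8 bases with Cre (exact permutation p = 0.23) and -20.9 bases without Cre (exact permutation p = 0.52). Weighted lengths were tested for no gene outside the members. The share of all genes whose lengths separate with Cre in this way is therefore not known.

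If the lengths of GENCODE M21 held for these files, the kinase transcript made up 60.3 ± 10.3% of Ntrk2 transcripts in C201R with Cre, 67.2 ± 7.7% in wild type with Cre, 19.4 ± 3.2% in C201R without Cre and 20.5 ± 2.6% in the wild-type libraries lacking Cre (SD over 6 mice). The transcript without the kinase then stood at 3.88 ± 0.62 CPM per kb in C201R with Cre against 22.1 ± 3.2 in C201R without Cre, and at 4.10 ± 0.48 in wild type with Cre against 20.4 ± 1.3 in wild type without Cre. Neither pair overlapped (exact permutation p = 0.0022 each, adjusted p = 0.0087 over 8 tests). These levels are computed from the level per kb and the weighted length, which each already separated the groups. The outcome was thus fixed by those values and is no further test. The kinase transcript stood at 6.14 ± 1.64 CPM per kb in C201R with Cre and 5.24 ± 0.64 in C201R without Cre (exact permutation p = 0.25, adjusted p = 0.36). In wild type it stood at 8.67 ± 1.88 with Cre and 5.27 ± 0.64 without Cre (exact permutation p = 0.0087, adjusted p = 0.023). Under these lengths the lower total of Ntrk2 with Cre lay in the transcript without the kinase. The astrocyte marker sum was also lower with Cre, and its part in the result was not tested. For Nrp1 and Ntf3 the lengths in the files differ from those of GENCODE M21, so the shares are conditional on those lengths while the shift in weighted length is not.

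**Figure D4:**
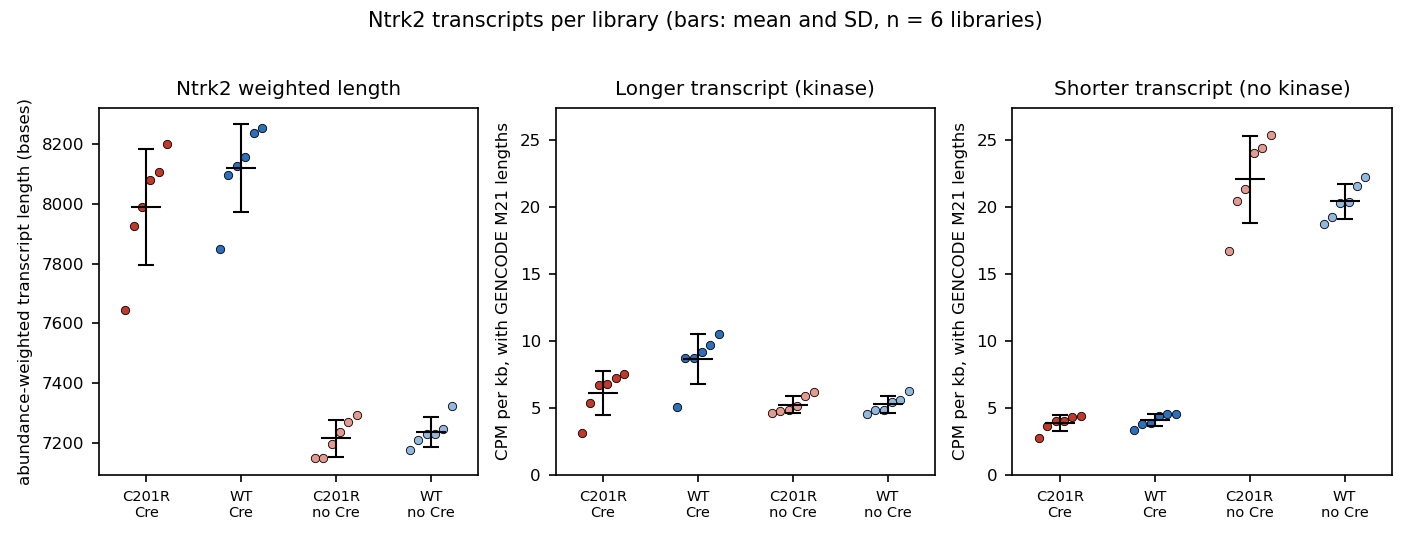
Weighted transcript length of Ntrk2 per library in bases (left) and the levels it gives for the longer kinase transcript (middle) and the shorter transcript without the kinase (right) in CPM per kb with GENCODE M21 lengths; bars are the mean and SD of 6 libraries. The shorter transcript averages 3.88 and 4.10 CPM per kb in C201R and wild type with Cre and 22.1 and 20.4 without Cre. The group means of the longer one lie between 5.24 and 8.67. Its single libraries run from 3.15 in C201R with Cre to 10.5 in wild type with Cre.

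Between genotypes with Cre, Ntrk2 had 56.1 to 91.92 CPM in C201R and 74.18 to 115.9 CPM in wild type, and the lowest wild-type library, mouse 14701-9, lay within the C201R range. The log2 change was -0.32 ± 0.12 with an interval of -0.55 to -0.08 and did not pass the test (edgeR adjusted p = 0.16). It passed with limma-voom (-0.29, adjusted p = 0.040) and without mice 14003-1 and 14701-9 (-0.32, edgeR adjusted p = 0.041). Fitted with the Gm26924 share it was -0.16. Given the M21 lengths, the kinase transcript averaged 6.14 CPM per kb in C201R and 8.67 in wild type with Cre (exact permutation p = 0.039, adjusted p = 0.078 over 8 tests; the adjusted p was 0.034 with exchange only within library series). Without Cre the change of Ntrk2 was 0.07 (interval -0.21 to 0.35), and the interaction was -0.41 ± 0.19 (unadjusted p = 0.039, edgeR adjusted p = 0.51).

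Ntrk3, the TrkC gene, did not pass the edgeR test as fitted in any comparison. It had 15.58, 15.96 and 21.63 CPM (lowest, median and highest library) in C201R with Cre, 13.71, 23.59 and 29.21 CPM in wild type with Cre, 14.65, 25.09 and 36.38 CPM in C201R without Cre, and 11.56, 21.12 and 35.89 CPM in wild type without Cre. All 4 groups overlapped. The log2 change between genotypes was -0.29 with Cre (interval -0.60 to 0.02; edgeR adjusted p = 0.34) and 0.29 without Cre (interval -0.22 to 0.80). Between pulldowns with and without Cre it was -0.48 ± 0.25 in C201R (edgeR adjusted p = 0.11) and -0.07 ± 0.27 in wild type (edgeR adjusted p = 0.84). Its interaction was -0.64 ± 0.36 (edgeR adjusted p = 0.62). Other settings did call it. The C201R enrichment passed with RLE scaling (-0.67, edgeR adjusted p = 0.029), with DESeq2 (-0.67, adjusted p = 0.025) and without C201R mouse 14004-7 lacking Cre (-0.65, edgeR adjusted p = 0.039), and the genotype change with Cre passed with limma-voom (-0.41, adjusted p = 0.040). With library totals alone the wild-type enrichment was called in the opposite direction (0.91, edgeR adjusted p = 0.023).

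The weighted length of Ntrk3 did separate with Cre in wild type, again with no share of all genes to set beside it. It was 2328 to 3061 bases with Cre and 1451 to 1889 bases without it, with means of 2564.7 and 1646.6 bases (exact permutation p = 0.0022, adjusted p = 0.013, and 0.027 within library series). In C201R the lengths overlapped, at 1596 to 2714 bases with Cre and 1624 to 2158 bases without (exact permutation p = 0.050, adjusted p = 0.20). GENCODE M21 lists 4 transcripts of Ntrk3, among them a kinase form of 825 codons and a form of 612 codons, so the length alone does not say which changed. Of the other genes tested, Bdnf was longer with Cre in C201R, at 4027.3 against 3811.8 bases (exact permutation p = 0.0022, adjusted p = 0.013) without overlap. The lengths in C201R without Cre rest on 154 counts over 6 libraries, divided among 11 transcripts. The lowest of these lengths, 3707 bases, is that of a single Bdnf transcript in GENCODE M21. In wild type the Bdnf difference was 84.4 bases and the groups overlapped (exact permutation p = 0.41). None of the length tests of Nrp2, Vegfa and Hdac6 passed. The smallest p among them was that of Hdac6 between genotypes with Cre, at a mean of 3482.0 bases in C201R and 4038.6 bases in wild type (exact permutation p = 0.048, adjusted p = 0.20, and 0.16 with exchange only within library series).

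Ngfr, which encodes p75, was low and uneven. It had 2.519 CPM at the lowest, 3.964 at the median and 18.64 at the highest library of C201R with Cre, and 0.798, 2.53 and 3.523 CPM in wild type with Cre. The highest value came from mouse 14003-1. The groups overlapped, and the log2 change of 1.23 ± 0.48 (interval 0.28 to 2.17) did not pass the test (edgeR adjusted p = 0.18). Without mouse 14003-1 it was 0.78 (edgeR adjusted p = 0.24). Without Cre it ranged from 0.9801 to 14.3 CPM in C201R and from 0.6207 to 9.777 CPM in wild type, a log2 change of 0.10 with an interval of -1.25 to 1.46. Between pulldowns with and without Cre the log2 change was -0.28 ± 0.60 in C201R (edgeR adjusted p = 0.71) and -1.38 ± 0.59 in wild type (edgeR adjusted p = 0.053), and the interaction was 1.03 ± 0.86. The wild-type enrichment passed with DESeq2 (-1.36, adjusted p = 0.034) and without wild-type mouse 14702-1 (-1.57, edgeR adjusted p = 0.028) or 14702-4 (-1.59, edgeR adjusted p = 0.014).

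Hdac6 did not pass the edgeR test as fitted in any comparison. It had 2.963, 4.254 and 5.219 CPM (lowest, median and highest library) in C201R with Cre and 3.238, 4.421 and 5.961 CPM in wild type with Cre, 2 groups that overlapped over most of their range. The log2 change was -0.08 with an interval of -0.59 to 0.44 (edgeR adjusted p = 0.92). Without Cre it had 3.704 to 14.29 CPM in C201R and 1.507 to 16.45 CPM in wild type, with a log2 change of 0.12 and an interval of -0.76 to 0.99. Between pulldowns with and without Cre the log2 change was -0.70 ± 0.39 in C201R (edgeR adjusted p = 0.13) and -0.89 ± 0.41 in wild type (edgeR adjusted p = 0.073). DESeq2 called the C201R value (-0.89, adjusted p = 0.033). The wild-type value was called without mouse 14702-4 (-1.09, edgeR adjusted p = 0.0099) and lay between -1.09 and -0.47 over the fits that left out 1 library. In C201R those fits gave -0.91 to -0.42. The intervals of the genotype change given above, with Cre and without it, leave room for changes of Hdac6 in either direction.

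Set against all genes, 1 of 8 tested members was called between genotypes with Cre, where 4.11% of 14634 genes were called. That member was among the 2.29% of genes called higher, and 0 members were among the 1.82% called lower. Without Cre 0 of 8 members and 0% of 14400 genes were called by edgeR, with 0% higher and 0% lower. There 455 genes had an unadjusted p under 0.05, none of them a member. DESeq2 called 2 genes and limma-voom 0, and neither called a member. In C201R 4 of 8 members were called for Cre enrichment, against 56.8% of 14335 genes; 3 were higher (30.5% of all genes) and 1 lower (26.3%). In wild type 4 of 8 were called, against 60.6% of 14264 genes; 2 were higher (27.7%) and 2 lower (32.8%). The interaction called 0 of 8 members and 0.13% of 16109 genes (0.0993% higher and 0.031% lower). An unadjusted p under 0.05 was found there for 2 of 8 members, Vegfa and Ntrk2, and for 1462 of the 16109 genes. The shares of members called for enrichment were therefore near those of all genes. The comparisons share libraries, so their values are not independent of each other.

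The other genes of these pathways gave 4 calls between genotypes with Cre, where 2.29% of 14634 genes were called higher and 1.82% lower. Of 19 other neuropilin, semaphorin and VEGF genes tested, none was higher, 2 were lower and 17 were not called; the list had a median log2 change of -0.09 against -0.006 for all genes. The lower ones were the neuropilin ligands Sema3d, at 2.399 to 8.991 CPM in C201R and 8.57 to 17.87 CPM in wild type (-1.26 ± 0.25, edgeR adjusted p = 0.013), and Sema3a, at 44.29 to 60.41 CPM in C201R and 49.04 to 105.2 CPM in wild type (-0.62 ± 0.16, edgeR adjusted p = 0.042). Of 15 other neurotrophin genes 0 were higher and 1 was lower, Lingo1, which encodes a partner of the p75 and Nogo receptor complex (-1.27 ± 0.32, edgeR adjusted p = 0.040), with a list median of -0.17. Of 19 other genes of HDAC6 and tubulin acetylation 1 was higher and 0 were lower, with a list median of 0.005. It was Hsp90aa1, a chaperone that HDAC6 deacetylates, at 3291 to 6906 CPM in C201R and 2199 to 2822 CPM in wild type (0.77 ± 0.15, edgeR adjusted p = 0.0096). Sema3a lost its call without any 1 of 10 libraries and Lingo1 without any 1 of 9, and Sema3d without wild-type mouse 14002-6 (edgeR adjusted p = 0.062), while Hsp90aa1 kept it whichever library was left out. None of these 4 calls held with the mouse number prefix as a block or when the Gm26924 share was fitted as a term. With that term the edgeR adjusted p was 0.21 for Sema3d, 0.31 for Sema3a, 0.54 for Lingo1 and 0.11 for Hsp90aa1. All 4 calls also ended with library totals alone and in library series 1 alone. Sema3a and Lingo1 lost theirs without the series term and with a filter of 10 counts in total as well. All 4 held with DESeq2, with limma-voom and in library series 2 alone.

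Without Cre and in the interaction no other gene of the 3 lists was called. The medians without Cre were -0.08 for the neuropilin list, 0.01 for the neurotrophin list and -0.02 for the HDAC6 list, against -0.04 for all genes. The interaction medians were -0.04, -0.42 and 0.02, against 0.05 for all genes.

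The ligand Sema3a and the receptors of VEGF moved in opposite directions with Cre. Of 18 other neuropilin, semaphorin and VEGF genes, 5 were higher and 6 lower in C201R (30.5% and 26.3% of all genes), and 7 were not called. In wild type 6 were higher and 6 lower (27.7% and 32.8% of all genes), and 6 were not called. Sema3a was higher by 2.40 ± 0.20 on the log2 scale in C201R and 2.78 ± 0.23 in wild type. The VEGF receptor gene Flt1 changed by -2.84 ± 0.41 in C201R and -3.58 ± 0.38 in wild type, Kdr by -3.21 ± 0.44 in wild type, and the semaphorin gene Sema3b by -2.42 ± 0.41 and -2.48 ± 0.34 in C201R and wild type. Flt1 and Kdr are also among the 12 endothelial and mural markers, of which all 11 tested were lower in both genotypes. L1cam, a neuronal adhesion partner of Nrp1, was higher by 1.79 ± 0.22 in C201R. In wild type L1cam stood at 90.27 to 168.1 CPM with Cre and 38.98 to 83.39 CPM without it. Kdr in C201R stood at 0.4903 to 1.661 CPM with Cre and 2.723 to 8.358 CPM without it.

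Of 15 other neurotrophin genes, 3 were higher and 3 lower with Cre in C201R (30.5% and 26.3% of all genes). In wild type 6 were higher and 3 lower (27.7% and 32.8% of all genes). Maged1, a p75 partner, was higher by 1.96 ± 0.18 in C201R and 1.81 ± 0.16 in wild type, and Ngfrap1, a p75-associated protein gene, by 2.37 ± 0.21 and 1.84 ± 0.17. Plcg1, an enzyme downstream of Trk receptors, changed by -1.88 ± 0.25 in C201R and -2.40 ± 0.24 in wild type. The Trk adapter Shc2 was higher by 1.07 ± 0.25 in C201R, and Shc3 by 1.44 ± 0.30 in wild type. In wild type Shc2 stood at 24.21 to 31.83 CPM with Cre and 8.22 to 23.76 CPM without it. Shc3 in C201R overlapped, at 0.3691 to 11.25 CPM with Cre and 2.981 to 6.862 CPM without it.

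Of 19 other genes of the HDAC6 list, 8 were higher and 2 lower with Cre in C201R (30.5% and 26.3% of all genes). In wild type 8 were higher and 4 lower (27.7% and 32.8% of all genes). The tubulin gene Tuba4a was higher by 2.93 ± 0.27 in C201R and 2.61 ± 0.22 in wild type, and Hsp90aa1 by 2.96 ± 0.26 and 2.09 ± 0.19. The autophagy receptor Sqstm1 and the segregase Vcp were higher by 1.91 ± 0.15 and 1.92 ± 0.16 in wild type. In C201R Sqstm1 stood at 123.7 to 182.7 CPM with Cre and 23.32 to 48.2 CPM without it. Vcp in C201R stood at 135.4 to 189.5 CPM with Cre and 37.88 to 69.46 CPM without it. Tuba1a and Tuba1b, higher by 2.71 ± 0.24 and 2.98 ± 0.25 in C201R, are near-identical copies, so the division of reads between them is uncertain. In wild type Tuba1a stood at 1304 to 1780 CPM with Cre and 229.6 to 583.9 CPM without it. Tuba1b in wild type stood at 1510 to 3140 CPM with Cre and 231 to 615.4 CPM without it. The log2 changes with Cre are relative to the TMM scaling, under which the median of all genes was 0.06 in C201R and -0.10 in wild type.

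As a description, the genes most like each member were ranked by Pearson correlation of log2(CPM+1) over the same 24 libraries among 8763 genes (8764 for Ngfr and Bdnf). The points share the libraries and the split by Cre. Vegfa was most like Lhfpl2 (0.85), Clic4 (0.81) and Vldlr (0.79). Ntrk2 was most like Slain1 (0.98), Fmnl2 (0.97) and the astrocyte water channel gene Aqp4 (0.97), and Nrp2 was most like Polr3g (0.93), Ahnak2 (0.93) and the neurofilament gene Nefl (0.92). Nrp1 was most like Cul2 (0.89), Bdnf like Cops7b (0.83), Ntrk3 like Dennd1a (0.81), Hdac6 like Vwa8 (0.78) and Ngfr like Ehbp1l1 (0.73). With the group means removed, the closest genes were N6amt1 for Vegfa (0.66) and Map6 for Nrp2 (0.80).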

How the data were processed

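The authors deposited 1 file per library with an expected count, a TPM value, a transcript length and an effective length for each gene. The submitters' processing notes name Bowtie2 2.2.0 and RSEM 1.2.12, which estimates such counts per gene; genome build and annotation are not given in the sources used here. TPM values, as the authors deposited them, served only for a second ranking of levels. RSEM divides reads shared by near-identical genes by estimate.

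Expected counts were rounded to whole numbers. Pairs of groups were fitted on their 12 libraries, and the interaction used all 24, with edgeR 4.0.16 (R 4.3.3): filterByExpr, TMM, the robust quasi-likelihood F test, and library series as a term. Library series are the 2 separate runs of library numbers in the descriptions, with 7 and 17 libraries, and the labels do not say what they stand for. P-values were adjusted by Benjamini-Hochberg over all genes tested, and genes with an adjusted p under 0.05 are called. The SE was computed as log2 change over root F, and intervals are 1.96 SE either side. Levels are CPM scaled by TMM over all 24 libraries, divided by effective length for CPM per kb. Every library stems from a separate mouse. Precision is limited by 6 mice per group and, for Ntf3, Bdnf, Ngfr and Hdac6, by few counts.

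Weighted transcript lengths were tested by exact permutation (two-sided), with adjustment over 24 tests for gene lengths and 8 for the Ntrk2 transcripts; these measures and the motif search were chosen after seeing the data. The 9 genes, the gene lists and the tests were chosen with earlier results of these data known. All 9 genes are named in each comparison. Of each pathway list at most 4 other called genes with the smallest p are named, or the 2 most abundant. The 3 most similar genes were sought among genes with a mean of at least 5 CPM, without predicted genes, pseudogenes, mitochondrial and small RNA genes. Alternatives were RLE scaling, library totals, DESeq2 1.42.0, limma-voom with quality weights (limma 3.58.1), other filters, no series term, the Gm26924 share as a covariate, a replicate block of mouse number prefixes, single library series, and leaving out libraries. The scripts were tested on simulated data. In the pathway lists Hdac4 was left out because 2 rows of the files carry its symbol. Of the most similar genes listed after removal of group means, an entry is not reported here.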

Additional observations from a re-analysis of the deposited data

Results flagged for a closer look

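Dixon's criterion was applied to 44 sets of 6 libraries, covering the CPM of the 9 genes and the weighted lengths of Ntrk2 and Ntrk3, each in 4 groups. In 8 sets the highest or lowest library stood apart from the other 5. For normal values chance alone gives about 1 such set in 20, and the sets come from the same libraries, so they are not independent.

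Wild-type mouse 14701-9 with Cre had the lowest value of its group for Nrp2 (64.18 CPM) and for Ntrk2 (74.18 CPM), and the highest weighted length of Ntrk3 (3061 bases). C201R mouse 14003-1 with Cre had the highest Ngfr level of its group, 18.64 CPM. These 2 mice also had the highest mitochondrial shares with Cre. Among C201R libraries without Cre, mouse 14003-2 was highest for Nrp2 (44.2 CPM), mouse 14702-8 for Vegfa (30.06 CPM) and mouse 14003-3 for Hdac6 (14.29 CPM). Wild-type mouse 14702-5 without Cre was highest for Ntf3, at 0.5827 CPM, in a group with 5 counts in all.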

How the results depend on the processing

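Of the 8 tested genes, 1 was called between genotypes with Cre. With library totals alone, with a replicate block of mouse number prefixes and in library series 1 alone 0 were called. DESeq2 called 2 (Nrp2 and Vegfa), limma-voom 4 (with Ntrk2 and Ntrk3), library series 2 alone 2 and the fit without mice 14003-1 and 14701-9 3. Leaving out each library in turn gave 1 to 2. The number of all genes called went as far as 1 in series 1, 32 with library totals, 75 with the block, 1971 with limma-voom and 1950 without the 2 mice, against 601. For Cre enrichment in C201R, 4 were called, but 2 with the Gm26924 share as a covariate (Ntrk2 and Bdnf), 2 with the block (Nrp2 and Ntrk2), 0 in series 1 alone and 6 with DESeq2 (with Ntrk3 and Hdac6); RLE scaling called 4 with Ntrk3 in place of Bdnf, and leaving out 1 library gave 3 to 5. In wild type 4 were called, 0 in series 1 alone and 5 with DESeq2 (with Ngfr); library totals called 4 with Ntrk3 and Bdnf in place of Vegfa and Ntrk2, and leaving out 1 library gave 3 to 6. The interaction called 0, and DESeq2 called 1, Vegfa. Whether prefixes mark litters is not stated in the labels; the cause of these differences was not tested. Vegfa in C201R against wild type with Cre kept its direction under all 24 alternatives, from 0.81 to 1.29, with an adjusted p from 1.6e-07 to 1.00.

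Changes of sign on the log2 scale touched values that the main fits did not call. With library totals alone the enrichment was 0.21 for Ngfr and 0.063 for Ntrk3 in C201R, and 0.053 for Hdac6 and 0.91 for Ntrk3 in wild type, the Ntrk3 value called there, and Bdnf without Cre was -0.014 between genotypes. With limma-voom it was 0.14 for Ngfr and -0.0016 for Vegfa in C201R and 0.047 for Ntrk3 in wild type; without Cre, C201R over wild type was -0.14 for Bdnf and 0.33 for Nrp1. With RLE size factors and with DESeq2, Vegfa was -0.18 in C201R enrichment. Without the series term C201R enrichment was 0.14 for Ngfr and -0.070 for Vegfa, and the genotype change without Cre was -0.059 for Hdac6 and 0.059 for Nrp1. With the block, Ngfr was 0.66 in C201R enrichment, Nrp1 0.049 between genotypes with Cre, and Hdac6 -0.15 and Nrp1 0.48 without Cre. With the Gm26924 covariate, Ntrk3 was 0.56 in wild-type enrichment, Nrp1 0.087 between genotypes with Cre and 0.089 without Cre, Ngfr -0.19 without Cre and Hdac6 0.093 in the interaction. In series 2 alone, enrichment was -0.035 for Vegfa in C201R and 0.32 for Ntrk3 in wild type, and the change without Cre was -0.073 for Ngfr and 0.23 for Nrp1. In series 1 alone the interaction was -0.11 for Bdnf, 1.52 for Hdac6, 1.29 for Nrp1, 0.069 for Ntrk2 and 0.084 for Ntrk3. Without mice 14003-1 and 14701-9 enrichment was -0.12 for Vegfa in C201R and 0.10 for Ntrk3 in wild type. With a filter of 10 counts in total Ntrk3 was 0.13 in wild-type enrichment, and with no filter 0.13.

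Leaving out each library in turn, enrichment in C201R ranged from -0.67 to 0.26 for Ngfr and from -0.13 to 0.065 for Vegfa, and in wild type from -0.19 to 0.30 for Ntrk3. Between genotypes with Cre the range was -0.16 to 0.035 for Hdac6 and -0.15 to 0.063 for Nrp1. Without Cre it was -0.28 to 0.31 for Bdnf, -0.24 to 0.42 for Hdac6, -0.68 to 0.50 for Ngfr and -0.16 to 0.24 for Nrp1. In the interaction it was -0.46 to 0.18 for Hdac6 and -0.29 to 0.081 for Nrp1. The deposited TPM values placed 34 of 36 levels at the same position in their group's order; Ngfr and Bdnf changed places in C201R with Cre. Series 1 alone could not be fitted for the genotype change without Cre, with 1 library per group.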
